A study of Mus musculus with 6 samples.

Results

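The midbrain-hindbrain patterning genes examined here were the 10 rows of the raw count table named *Otx1*, *Otx2*, *Gbx2*, *En1*, *En2*, *Pax5*, *Pax8*, *Irx2*, *Irx3* and *Irx5*, of 54532 genes in all. They were chosen by name, for their known part in dividing the early neural tube, with earlier results of these data already known. Bulk mRNA was sequenced from mouse cerebella at postnatal day 1, in 3 control and 3 mutant libraries. The controls were *Tox3f/f* littermates. The mutants were *Nestin-cre;Tox3f/f* animals, a conditional knockout of the high mobility group box protein Tox3. Both groups carried the floxed *Tox3* allele, a knockout-first allele from which the reporter cassette is removed with FLP. Cre is driven in the neural lineage by the *Nestin* transgene, which every mutant and no control carried, so effects of the transgene and of the deletion cannot be told apart. Neither the labels nor the methods say whether each library was 1 animal, and p-values therefore measure only the spread between these libraries, which were of both sexes.

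These genes encode homeodomain and paired-domain transcription factors. In the embryo, Otx2 marks the forebrain and midbrain and Gbx2 the anterior hindbrain. The isthmic organizer forms where the domains meet, expresses *Fgf8* and *Wnt1*, and maintains the Engrailed genes and the *Pax2*, *Pax5* and *Pax8* family in the adjoining midbrain and cerebellar primordium. The Iroquois (Irx) genes lie in clusters and pattern several regions of the neural tube and other organs. Some of these genes are used again later. *Otx1* and *Otx2* are known in granule neuron progenitors (GNPs) of the cerebellum, *Otx2* also in choroid plexus and retina, and *En1* and *En2* in cerebellar lobule patterning.

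The libraries held between 15391854 and 17178478 counts on genes, at which 3 counts, taken as the floor of detection in 1 library, correspond to at most 0.196 CPM (counts scaled to the library total, normalized by edgeR's TMM method). Of all genes, 17505 passed edgeR's filter on low counts and were tested with its quasi-likelihood test and Benjamini-Hochberg adjustment. Genes with an adjusted p under 0.01 and more than 0.5 between the groups on the log2 scale were called. *Tox3* itself was counted at 63.0 to 64.4 CPM in control and 55.3 to 63.2 CPM in mutant libraries. The count covers all its exons, the sources used here do not name the deleted one, and it therefore does not check the labels. *Atoh1*, the transcription factor that defines the GNP lineage, was counted at 30.9 to 32.6 CPM in control and 0.249 to 0.577 CPM in mutant libraries. All directions below rest on the labels.

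Of the 10 patterning genes, 9 were tested and *Pax8* had too few counts. *Otx1*, *Otx2* and *En1* were called lower, 3 of 9, where 3.63% of all tested genes were called lower. None was called higher by edgeR, where 3.03% of all tested genes were. DESeq2 also called none higher. In the edgeR fit, 4 of the 9 had an unadjusted p under 0.05 in that direction, a cut at which the share of all tested genes was not counted. Without the fold threshold, *En2* passed as lower and *Irx2* as higher, giving 4 of 9 lower beside 7.24% of all tested genes and 1 of 9 higher beside 6.55%. Control and mutant libraries were separate for 8 genes: 4 lower beside 20.1% of all tested genes, and 4 higher (*Gbx2*, *Irx2*, *Irx3* and *Irx5*) beside 20.4%. The median log2 fold change of the 9 was 0.24, with 4 below and 5 above 0, against −0.01 over all tested genes. The median joins a split set: the Otx and Engrailed genes had values below 0 and *Gbx2*, *Pax5* and the Irx genes values above 0. The sign of *Pax5* rested on mutant 1 and was reversed without that library.

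**Figure D1:**
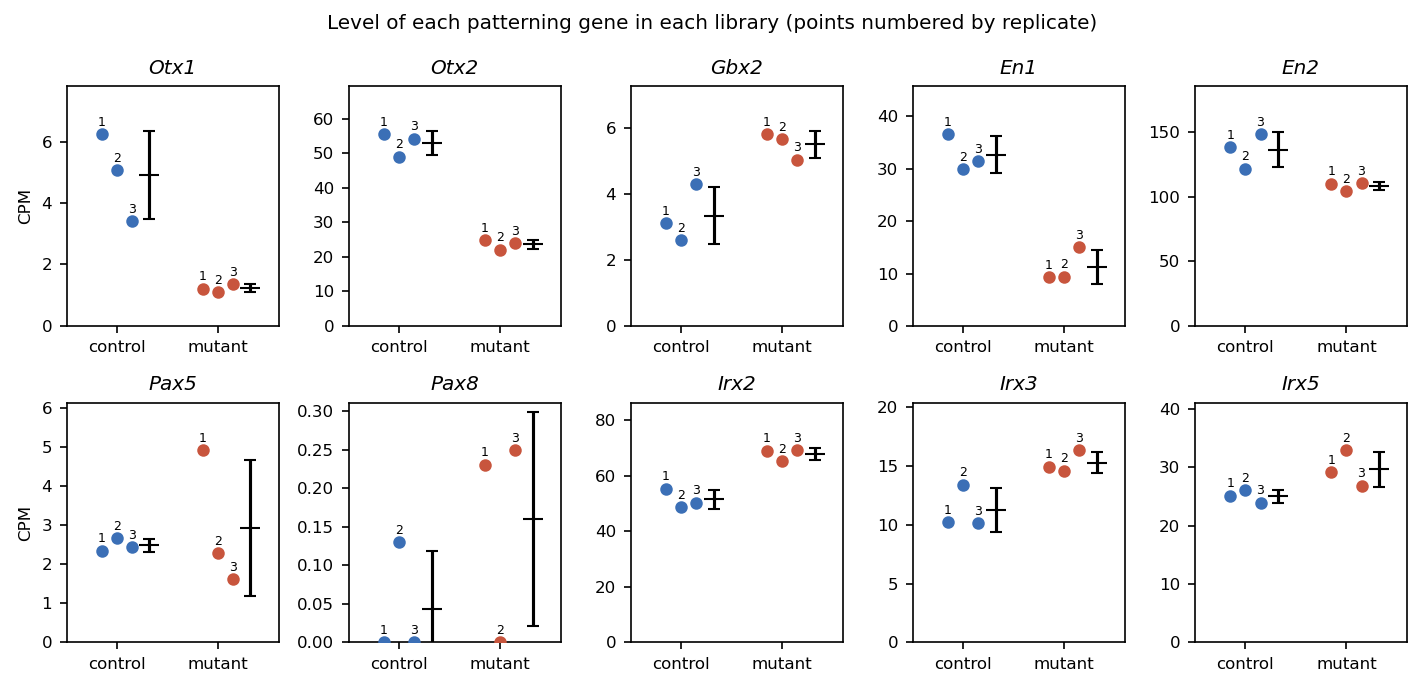
Level of each patterning gene in CPM, with the axis from 0 in each panel. Points are libraries numbered by replicate (whether the numbers pair the libraries is not known). Bars are the mean and SD of 3 libraries, the SD of *Pax8* in controls reaching below the axis. *Otx1*, *Otx2*, *En1* and *En2* lay lower in every mutant library than in every control, and *Gbx2*, *Irx2*, *Irx3* and *Irx5* higher.

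*Otx2* (ENSMUSG00000021848) lies on the minus strand of GRCm38 at chr14:48657677-48673819. Its level was 55.5, 49.0 and 54.2 CPM in control 1, 2 and 3 and 24.7, 22.0 and 24.0 CPM in mutant 1, 2 and 3. Every mutant library lay below every control, and within each group the libraries were close, the highest being 1.13 times the lowest among controls and 1.12 times among mutants. The mean fell from 52.9 ± 3.47 to 23.6 ± 1.40 CPM (SD, n = 3), which on the log2 scale was −1.16 (standard error, SE, 0.08, adjusted p = 1.81e-05 by edgeR's quasi-likelihood test), or 2.24-fold. Over 16 alternative fits, its log2 fold change lay between −1.22 and −1.03 and passed the threshold in each.

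*Otx1* (ENSMUSG00000005917, minus strand, chr11:21994764-22002897), the other Otx gene expressed in the embryonic forebrain and midbrain, was scarcer. Its counts were 96, 78 and 53 in control 1 to 3 and 21, 17 and 22 in mutant 1 to 3. In CPM these were 6.25, 5.08 and 3.40 against 1.21, 1.11 and 1.37. The controls varied 1.84-fold among themselves, the mutants 1.24-fold, and the groups did not overlap. The mean fell from 4.91 ± 1.43 to 1.23 ± 0.132 CPM, which on the log2 scale was −1.99 (SE 0.28, adjusted p = 0.000764 by the same test), or 3.97-fold. On the authors' FPKM scale with limma, the call was lost, with log2 fold changes of −0.62 on log2(FPKM + 1) (adjusted p = 0.0167) and −1.58 on log2(FPKM + 0.1) (adjusted p = 0.0140).

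Of their paralogs, *Crx*, the photoreceptor and pineal member of the Otx family, was too low to test, at no more than 0.249 CPM in any library. *Gbx2* (ENSMUSG00000034486, minus strand, chr1:89927956-89931179), which opposes *Otx2* at the embryonic boundary, had higher values in the mutants without passing the threshold. It had 48, 40 and 67 counts in the controls and 101, 87 and 81 in the mutants, or 3.12, 2.60 and 4.30 CPM against 5.83, 5.67 and 5.04 CPM. All mutants lay above all controls, at a low level. The log2 difference was 0.72 (SE 0.21, 95% interval 0.25 to 1.19, adjusted p = 0.0307 by edgeR), and *Gbx1* was too low to test.

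*En1* (ENSMUSG00000058665, plus strand, chr1:120602418-120607992) is the Engrailed gene without which the midbrain and cerebellum fail to form. The controls had 36.6, 29.9 and 31.5 CPM and the mutants 9.34, 9.38 and 15.1 CPM. Mutant 3 was the highest of the mutants, 1.61 times the lowest, and still below the lowest control. The mean fell from 32.7 ± 3.54 to 11.3 ± 3.30 CPM, which on the log2 scale was −1.54 (SE 0.17, adjusted p = 0.000234 by edgeR), or 2.90-fold. It was −1.80 without mutant 3.

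*En2* (ENSMUSG00000039095, plus strand, chr5:28165694-28172166), the Engrailed gene known for cerebellar foliation, differed less between the groups. The controls had 138, 122 and 148 CPM and the mutants 110, 104 and 110 CPM, and the groups did not overlap. The log2 difference was −0.33 (SE 0.07, 95% interval −0.49 to −0.17, adjusted p = 0.00765 by edgeR), past the p threshold and short of the fold threshold. The p threshold was missed with any 1 library but control 2 left out (adjusted p between 0.0164 and 0.0276), with library size alone as the scale (0.0112) and in the limma fits on FPKM (0.0331 to 0.0596). At 1.26-fold, its difference was smaller than that of *En1* in the same libraries.

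*Pax5* (ENSMUSG00000014030, minus strand, chr4:44524757-44710487), an early target of the isthmic organizer and later a B-cell regulator, had few counts. They were 36, 41 and 38 in the controls and 85, 35 and 26 in the mutants, or 2.34, 2.67 and 2.44 CPM against 4.90, 2.28 and 1.62 CPM. Mutant 1 stood above all other libraries and the other mutants lay below all controls. The log2 fold change of 0.25 (SE 0.37, adjusted p = 0.664 by edgeR) was −0.35 without mutant 1 (adjusted p = 0.460), so no direction can be given. The B-cell gene *Cd79a*, chosen after its values were seen, was at 0.634 CPM in mutant 1, and its highest value in the other libraries was 0.623 CPM.

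*Pax8* (ENSMUSG00000026976, minus strand, chr2:24420560-24475599), which acts with *Pax2* and *Pax5* at the embryonic boundary and in thyroid and kidney, was at or near 0. It had 0, 2 and 0 counts in the controls and 4, 0 and 4 in the mutants. The group sums of 2 and 8 counts have exact 95% Poisson intervals of 0.242 to 7.22 and 3.45 to 15.8, which overlap and cover counting error only, so no difference was detectable at this depth. Their paralog *Pax2*, in the postnatal cerebellum a gene of GABAergic interneuron precursors, was the abundant member of the family, at 74.0, 72.4 and 76.0 CPM in the controls and 102, 103 and 101 CPM in the mutants. The log2 difference was 0.46 (SE 0.05, adjusted p = 0.000170 by edgeR), past the p threshold and under the fold threshold.

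The 3 Irx genes had higher means in the mutants, by less than the fold threshold. *Irx2* (ENSMUSG00000001504, plus strand, chr13:72628820-72634198), the Irx gene known in FGF8-dependent cerebellar induction, was counted at 55.4, 48.8 and 50.3 CPM in the controls and at 69.1, 65.4 and 69.1 CPM in the mutants. The groups did not overlap, and the log2 difference was 0.40 (SE 0.07, 95% interval 0.25 to 0.55, adjusted p = 0.00217 by edgeR). *Irx2* was the 1 patterning gene past the p threshold in this direction, and it missed that threshold in 4 of the 6 fits that left out 1 library (control 2 or 3, mutant 1 or 3), with adjusted p between 0.0110 and 0.0130.

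*Irx3* (ENSMUSG00000031734, minus strand, chr8:91798525-91802067), known for ventral spinal cord patterning, was at 10.2, 13.4 and 10.1 CPM in the controls and 14.9, 14.6 and 16.3 CPM in the mutants. Control 2 was the highest control and lay below every mutant. The log2 fold change was 0.44 (SE 0.13, adjusted p = 0.0313 by edgeR), and without control 2 it was 0.59 and was called (adjusted p = 0.00962). *Irx5* (ENSMUSG00000031737, plus strand, chr8:92357625-92376286), its cluster neighbour, was at 25.1, 26.1 and 23.9 CPM in the controls and 29.1, 32.8 and 26.8 CPM in the mutants. The nearest libraries of the groups lay close together, and its log2 difference was 0.24 (SE 0.09, adjusted p = 0.0879 by edgeR).

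Their paralog *Irx1* was at 70.2, 66.5 and 70.7 CPM in the controls and 86.2, 87.4 and 86.7 CPM in the mutants, a log2 fold change of 0.33 (adjusted p = 0.00154 by edgeR). *Irx4* was low and varied in the controls, at 1.17, 1.89 and 3.92 CPM against 4.56, 4.63 and 3.49 CPM (log2 fold change 0.86, adjusted p = 0.117). The groups overlapped for *Irx4*, and *Irx6* was too low to test. *Irx3*, *Irx5* and *Irx6* share chromosome 8 with *Tox3*, at 1450182, 2009282 and 2325945 bases from its nearer end. Controls carried the floxed allele as well, and whether its flanking sequence differed between the groups was not tested.

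**Figure D2:**
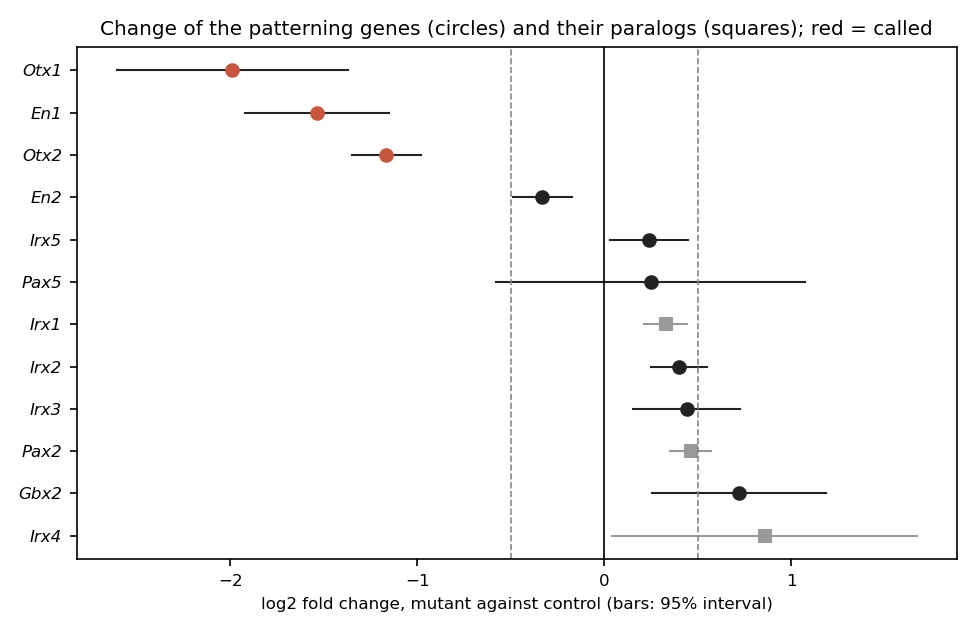
Log2 fold changes of the 9 tested patterning genes (circles) and the 3 tested paralogs (squares), mutant against control, with 95% intervals from the edgeR fit. Dashed lines mark the fold threshold of 0.5. *Otx1* (−1.99), *En1* (−1.54) and *Otx2* (−1.16) lie beyond it in red, as called genes, while the interval of *En2* ends at −0.49, short of it.

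The authors' FPKM values, which divide by gene length, allow levels to be compared between genes. In the controls, *En2* was highest at 38.1 ± 3.77 FPKM, followed by *Irx2* at 15.6 ± 1.03, *Otx2* at 12.4 ± 0.809, *En1* at 12.3 ± 1.33 and *Irx5* at 7.94 ± 0.354 FPKM (SD, n = 3). *Irx3* was at 4.04 ± 0.671, *Gbx2* at 1.52 ± 0.396, *Otx1* at 0.897 ± 0.261 and *Pax5* at 0.278 ± 0.0189 FPKM. Of neighbours in this order, the libraries overlapped between *Otx2* and *En1* alone. In the mutants *En2* and *Irx2* kept the first places, at 30.4 ± 1.09 and 20.6 ± 0.765 FPKM. *Irx5* followed at 9.42 ± 0.917 FPKM, above *Otx2* at 5.56 ± 0.359, *Irx3* at 5.51 ± 0.346 and *En1* at 4.27 ± 1.26 FPKM. Here the libraries of *Otx2* and *Irx3* overlapped, as did those of *Irx3* and *En1*. *Otx1*, at 0.226 ± 0.0251 FPKM, came to overlap *Pax5*, at 0.330 ± 0.196 FPKM. *Pax8* was last in both groups.

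**Figure D3:**
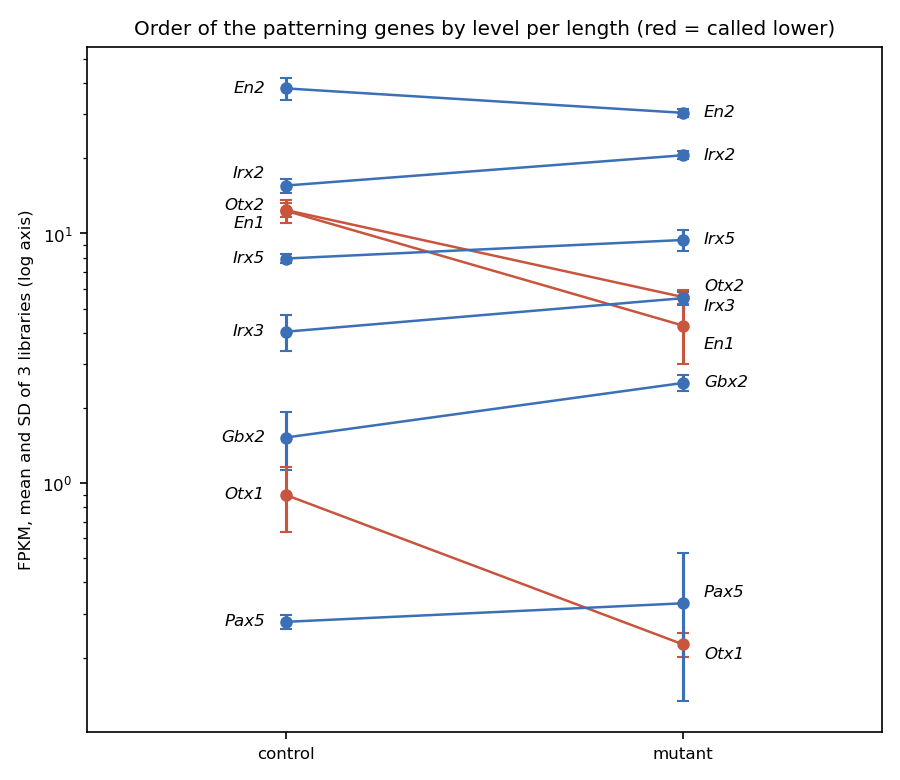
Mean level per gene length of 9 patterning genes in control and mutant cerebella, in FPKM on a log axis, with the SD of 3 libraries. *Pax8*, near 0, is left out. The red lines of *Otx2* and *En1*, at 12.4 and 12.3 FPKM in controls, drop below *Irx5* in the mutants, and that of *Otx1* drops to 0.226 FPKM.

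Ratios of 2 genes within a library do not depend on its normalization. The 4 ratios below were chosen after values were seen. *En1* relative to *En2* had a log2 ratio of −1.92, −2.03 and −2.24 in control 1 to 3 and of −3.56, −3.48 and −2.87 in mutant 1 to 3, a difference of −1.24. *Otx1* relative to *Otx2* differed by −0.79, from −3.47 ± 0.456 to −4.27 ± 0.119. *Otx2* relative to *Gbx2* differed by −1.92, from 4.01 ± 0.313 to 2.10 ± 0.146. The groups did not overlap in any of these ratios. *Pax6* is a granule lineage transcription factor that was itself called lower (log2 fold change −0.99). *Otx2* relative to *Pax6* differed by −0.18, from −2.79 ± 0.0902 to −2.97 ± 0.120, again without overlap. That difference depends on the marker taken. The log2 fold changes of the 10 granule neuron markers ran from −1.78 (*Nhlh1*) to −0.03 (*Tiam1*, named after its values were seen). With 3 libraries against 3, the two-sided exact permutation test cannot give a p under 0.1, which it gave for all 4 ratios (0.1 after adjustment over the 4).

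**Figure D4:**
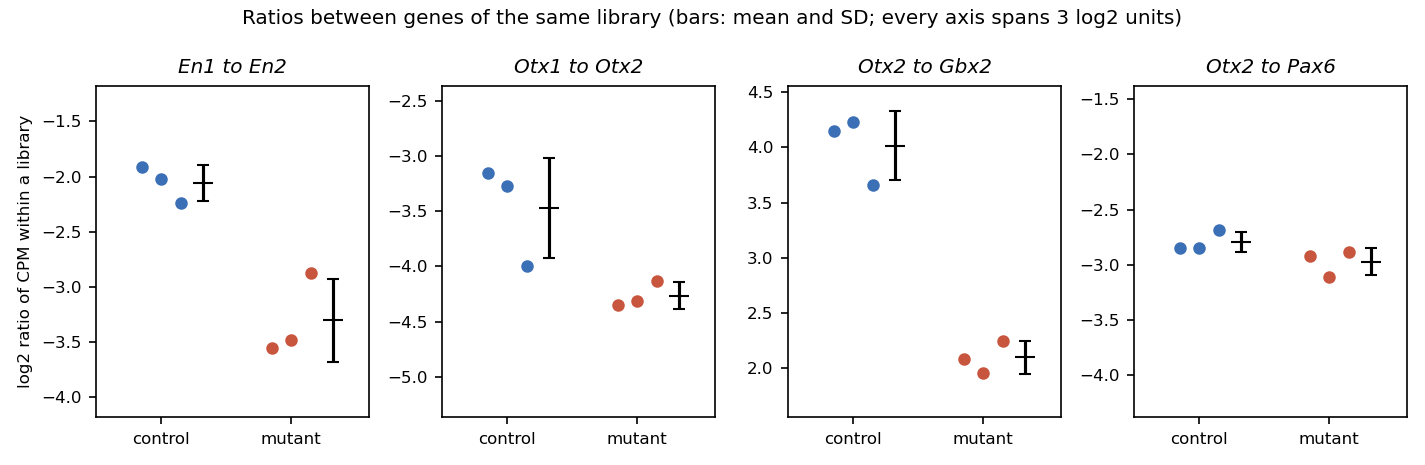
Log2 ratios of the CPM of 2 genes within each library, with the mean and SD of 3 libraries per group and axes that each span 3 log2 units. The *Otx2* to *Gbx2* and *En1* to *En2* ratios lie lower in the mutants by 1.92 and 1.24, and the *Otx2* to *Pax6* ratio by 0.18.

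To place the Otx and Engrailed genes beside their sequence, promoters (250 bases before to 50 after a transcription start) were taken from RefSeq's annotation of GRCm38.p6, where 7 of the 10 genes had 10 entries, 4 of them for *Otx2*. They were searched on both strands for the E-box CANNTG, the core bound by basic helix-loop-helix factors such as Atoh1, for its forms CAGCTG and CATCTG or CAGATG, for the homeodomain core TAATTA, and for the Otx-type TAATCC or GGATTA. The forms are contained in CANNTG. Shown here are *En1* and the 2 *Otx2* starts whose windows held TAATCC or GGATTA, or CATCTG, with all these motifs in capitals. They belong to 2 of the 3 genes called lower, and *Otx1* had no entry.

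En1, chr1:120602237-120602536, plus strand: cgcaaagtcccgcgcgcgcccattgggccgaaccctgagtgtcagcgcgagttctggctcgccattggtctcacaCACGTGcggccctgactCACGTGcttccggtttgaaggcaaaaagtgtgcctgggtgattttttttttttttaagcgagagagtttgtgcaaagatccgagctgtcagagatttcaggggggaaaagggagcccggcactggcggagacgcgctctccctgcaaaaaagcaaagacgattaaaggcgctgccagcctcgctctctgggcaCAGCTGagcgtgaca

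Otx2 (start 3), chr14:48665060-48665359, minus strand: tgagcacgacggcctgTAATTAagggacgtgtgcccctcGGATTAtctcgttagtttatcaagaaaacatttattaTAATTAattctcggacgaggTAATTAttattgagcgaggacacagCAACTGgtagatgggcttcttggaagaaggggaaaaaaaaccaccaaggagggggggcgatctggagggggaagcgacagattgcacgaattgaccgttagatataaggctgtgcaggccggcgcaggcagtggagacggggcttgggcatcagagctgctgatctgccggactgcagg

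Otx2 (start 4), chr14:48662685-48662984, minus strand: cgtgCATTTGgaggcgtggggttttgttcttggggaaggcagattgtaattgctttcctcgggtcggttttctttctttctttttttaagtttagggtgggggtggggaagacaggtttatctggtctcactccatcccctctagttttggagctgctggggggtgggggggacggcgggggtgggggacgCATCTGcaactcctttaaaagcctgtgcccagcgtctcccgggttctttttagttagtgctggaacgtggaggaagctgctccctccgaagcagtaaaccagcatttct

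The *En1* window held CACGTG at 175 and at 158 bases before the start and CAGCTG from base 36 after it, and neither homeodomain motif. The window of *Otx2* start 3 held TAATTA at 234, 174 and 154, GGATTA at 211 and the E-box CAACTG at 129 bases before the start. That of start 4 held CATTTG at 246 and CATCTG at 59 bases before it. Among 32851 promoters of the same length, 72.3% held CANNTG, 16.3% CAGCTG, 17.2% CATCTG or CAGATG, 5.29% TAATTA and 7.06% TAATCC or GGATTA. Of the genes with higher means, the *Gbx2* window held 4 E-boxes, CAGCTG among them, the *Irx2* window 1, CAGATG at 74 bases before the start, and the *Irx3* window none of the motifs. The starts of *Otx2* shown were picked for the motifs they hold. Of those not shown, start 1 held the E-box CACATG at 124 and TAATTA at 141 bases before the start, and start 2 none of the motifs. A match is a description of the letters and not a bound site.

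Reads of neighbouring or overlapping genes could add to a count, since the sources used here do not say whether strand was used in counting. *Otx2os1*, a long noncoding RNA on the opposite strand that overlaps *Otx2*, had 20, 13 and 11 counts in the controls and 11, 6 and 4 in the mutants, against 338 to 853 for *Otx2*. The log2 difference was −1.13 (SE 0.47, adjusted p = 0.110 by edgeR). *Gm49154* on the same strand had at most 3 counts in any library. *Irx3os*, antisense to *Irx3*, had 14, 20 and 16 counts in the controls and 41, 19 and 21 in the mutants, highest in mutant 1, and was not called. The others that overlapped a member (*D130058E05Rik* at *Gbx2*, *Gm43610* at *En2*, *Gm12462*, *4930517J16Rik*, *5730488B01Rik* and *Mir5120* at *Pax5*, and *Gm13415* at *Pax8*) were not called or not tested. The *Pax5* counts were above those of each gene inside it in every library. They came closest in mutant 3, at 26 against 20 for *4930517J16Rik*. Within 500 kb of the 10 genes, 64 neighbours were tested, of which 2 were called lower (*Peli2* near *Otx2* and *Melk* near *Pax5*) and 4 higher (*Ackr3* near *Gbx2*, *Dbi* near *En1*, *Shh* near *En2* and *Mmp2* near *Irx5*). Beside these counts, 3.63% of all tested genes were called lower and 3.03% higher. No other neighbour of *Otx1*, *Otx2* or *En1* in that window was called lower.

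Of the 14 genes listed for the isthmic organizer and its FGF feedback, 12 were tested, 3 were called lower and none higher by edgeR. DESeq2 called 1 of them higher, *Lmx1b*, and 1 had an unadjusted p under 0.05 in that direction in edgeR. *Fgf8*, the organizer's ligand in the embryo, had 50, 33 and 31 counts in the controls and 1, 0 and 0 in the mutants, too few there to give a fold. The study names *Fgf8* among the GNP-enriched genes that fell in its mutants and are bound by Tox3. Which cells its counts came from was not tested here. *Etv5*, a transcription factor induced by FGF, was at 134, 133 and 131 CPM against 82.6, 87.7 and 89.6 CPM (log2 fold change −0.62, adjusted p = 3.80e-05). *Cnpy1*, an FGF signalling regulator, had a log2 fold change of −0.33 (adjusted p = 0.000780), short of the fold threshold. The other called gene was *Spry1*, a feedback inhibitor of FGF signalling (log2 fold change −0.51, adjusted p = 0.00427). *Lmx1b*, which maintains the organizer in the embryo, was at 0.651, 0.846 and 0.642 CPM in the controls and 2.54, 0.782 and 4.55 CPM in the mutants, high in mutants 1 and 3 and in the control range in mutant 2 (adjusted p = 0.0345 by edgeR). *Spry1* and *Lmx1b* were named after their values were seen. The median over the 12 was −0.28.

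Of 18 listed cofactors and regional regulators in the table, 17 were tested, 3 were called lower and 1 higher, with a median log2 fold change of −0.07. *Mab21l1* was at 105, 97.3 and 109 CPM in the controls and 71.4, 67.6 and 65.2 CPM in the mutants (log2 fold change −0.61, adjusted p = 0.000133 by edgeR). *Tle2*, a Groucho corepressor of the kind that Engrailed binds, also fell by 0.61 on the log2 scale (adjusted p = 0.000792), and *Tle1* had a log2 fold change of −0.35, short of the fold threshold. The others called, named after their values were seen, were *Mab21l2* (−1.08) and, as higher, *Meis2* (0.66), a homeodomain cofactor. The Pbx genes, cofactors of Engrailed, were not called.

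The fall of *Otx2*, *Otx1* and *En1* stood beside a fall of granule lineage markers. In bulk RNA, fewer cells of a type and less RNA per cell cannot be told apart. The study's single-nucleus RNA data, from pooled cerebella of the same age, reported a smaller share of GNPs in the mutants. Of 10 GNP markers 9 were called lower (among them *Barhl1*, log2 fold change −2.59, and *Ccnd1*, −1.05), and their summed level was 1459 to 1583 CPM in control and 590 to 643 CPM in mutant libraries. Of 10 granule neuron markers 6 were called lower (*Neurod1*, −1.16, and *Nhlh1*, −1.78, among them), with sums of 3513 to 3656 and 2450 to 2619 CPM. The sum of the GNP markers changed by −1.30 on the log2 scale, against −1.16 for *Otx2*. That sum is weighted to its abundant genes. The single markers ran from −6.40 (*Atoh1*) to −0.02 (*Hhip*, named after its values were seen), with a median of −1.24. *Otx2* is known in these cells, and the part of their share in its fall was not tested.

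Beside *Gbx2* and the Irx genes, the other cell type lists were higher or lower in the mutants. Of 10 Purkinje cell markers 5 were called higher (*Skor2*, 0.78, *Car8*, 0.63, and *Calb1*, 0.68), and *Lhx1*, named after its values were seen, was past the p threshold as lower but not the fold threshold (−0.38, adjusted p = 0.000778 by edgeR). The sums were 1737 to 1862 CPM in control and 2321 to 2810 CPM in mutant libraries. Of 10 GABAergic precursor markers, which include *Pax2*, 5 were called higher (*Tfap2b*, 0.66, and *Gad1*, 0.58, among them) and 1 lower (*Ptf1a*, −1.18, named after its values were seen), with sums of 640 to 649 and 926 to 973 CPM. Of 8 astroglial markers 3 were called higher (*Gdf10*, 1.18, and *Gfap*, 1.42), with sums of 3327 to 3375 and 4399 to 4758 CPM, and of 10 meningeal markers 3 (*Col1a2*, 0.77, and *Col1a1*, 0.85), with sums of 433 to 460 and 634 to 780 CPM. Of 9 tested nuclear neuron and unipolar brush cell markers 2 were called higher (*Meis2*, 0.66, and *Calb2*, 0.57, the latter named after its values were seen), while *Slc17a6* (−0.49, adjusted p = 0.000459 by edgeR) and *Eomes* (−0.42, adjusted p = 0.00125) passed the p threshold as lower but not the fold threshold. The sums of this list were 275 to 281 CPM in control and 264 to 269 CPM in mutant libraries, lower in the mutants without overlap. No endothelial marker of 8 was called by edgeR or DESeq2 (*Kdr*, −0.23, had an unadjusted p under 0.05), with sums of 394 to 434 and 386 to 397 CPM. Their part in the differences of *Gbx2* and the Irx genes was not tested.

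*Otx2* is also made outside the cerebellar granule lineage, so markers of tissue that could be carried over in dissection were summed beside it. Of 12 choroid plexus markers (*Otx2* not among them), none was called by edgeR, 4 had an unadjusted p under 0.05 as higher, and DESeq2 called 1, *Slc4a5*. Their sum was 155, 121 and 85.3 CPM in control 1 to 3 and 212, 21.5 and 791 CPM in mutant 1 to 3, so that the mutants differed 36.8-fold among themselves where *Otx2* differed 1.12-fold. *Ttr*, the most abundant of them and named after its values were seen, was at 131, 101 and 67.7 CPM in the controls and 181, 6.06 and 711 CPM in the mutants. All 12 markers had log2 fold changes above 0, with a median of 1.29. *Kcnj13*, *Slc4a5* and *Kl* were higher in every mutant library than in every control, mutant 2 included, and the groups overlapped for the others. *Otx2* was at 22.0 CPM in mutant 2, where the sum of the list was below every control. In mutant 3, where that sum was highest, *Otx2* was at 24.0 CPM. The part of choroid plexus tissue in the level of *Otx2* was not tested. *En1* was highest of the mutants in mutant 3, and without that library *Otx1*, *Otx2* and *En1* were each called again.

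Of 16 midbrain markers, 8 were tested and 2 were called lower, *Barhl2* (−1.58) and *Pou4f2* (−3.54). *Pax7* was at 0.578 to 1.63 CPM in the controls and 1.11 to 2.62 CPM in the mutants. Of the others listed, *Foxa1* had 0 counts in every library, and *Helt* and *Pitx3* at most 3. Of the 8 tested, 4 had log2 fold changes below 0 and 4 above, with a median of 0.11. *Barhl2* was the most abundant gene of the list, with a mean of 34.2 CPM in control and 11.4 CPM in mutant libraries. The list, in which *Barhl2* weighed most, summed to 57.7 to 67.1 CPM in control and 34.5 to 46.5 CPM in mutant libraries. The ranges did not overlap, but the mean of the sum, from 61.2 to 40.8 CPM, fell by less than *Barhl2* alone. The separation therefore does not speak for the other genes of the list. The part of midbrain tissue in the fall of *Otx2* was not tested.

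Of 12 forebrain markers, 3 were tested and 1 was called lower, while *Neurod6* (−0.10) and *Lhx6* (−0.24) were not called. *Dlx5* and *Nkx2-1* had 0 counts in every library, and *Emx2* and *Fezf2*, which mark the dorsal telencephalon, at most 3. The sums were 45.7 to 52.1 and 34.8 to 40.3 CPM. Of the 14 caudal hindbrain markers (Hox and Phox2 genes) none was abundant enough to test, with sums of 0.706 to 1.04 CPM in control and 1.11 to 2.43 CPM in mutant libraries. Of 10 pineal and retinal genes 1 was tested and not called by edgeR or DESeq2, at sums of 2.60 to 3.06 and 2.08 to 2.61 CPM, and *Gngt1* had 0 counts. *Dbh*, a gene of noradrenergic neurons named after its values were seen, was at 0.385 to 0.586 CPM in the controls and at 5.08, 0.717 and 12.5 CPM in the mutants. Like *Lmx1b* and the choroid plexus sum, it was highest in mutant 3 and lowest among the mutants in mutant 2. *Otx1* had the same order among the mutants and *Otx2* was also lowest in mutant 2, with a range of 1.24-fold and 1.12-fold against 17.4-fold for *Dbh*. Their part in the levels of *En1*, *Otx1* and *Otx2* was not tested.

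**Figure D5:**
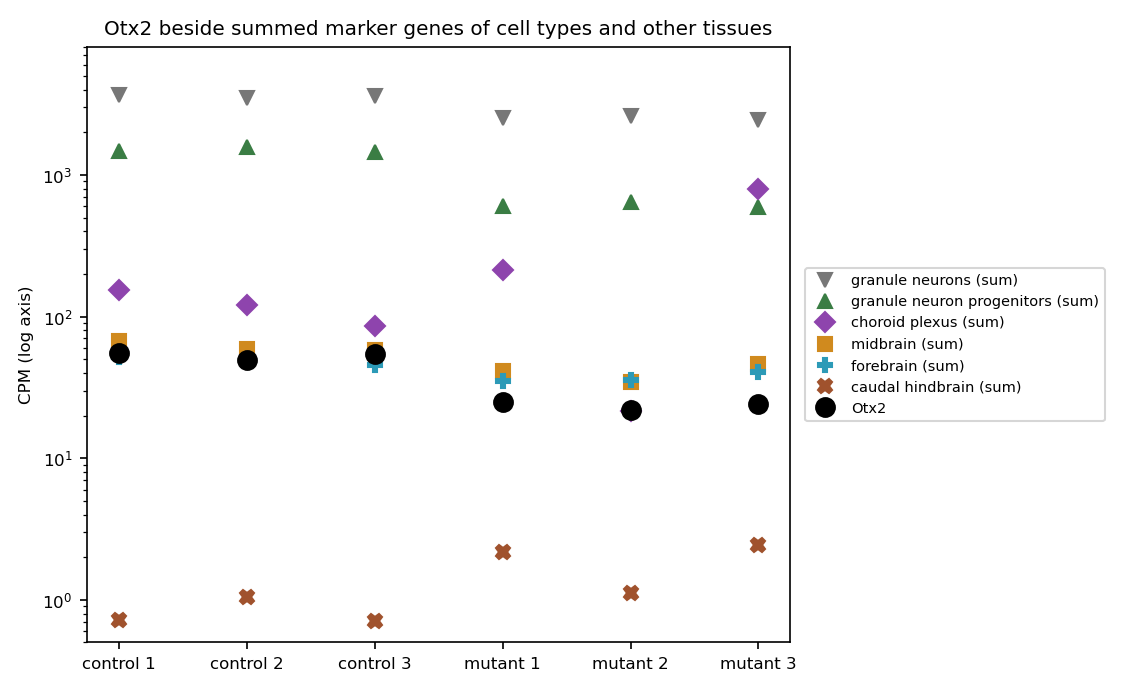
*Otx2* (black circles) and the summed levels of 6 marker lists in each library, in CPM on a log axis. *Otx2* and the GNP sum are lower in all 3 mutants, at 22.0 to 24.7 and 590 to 643 CPM, while the choroid plexus sum runs from 21.5 to 791 CPM among the mutants.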

How the data were processed

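RNA was extracted from cerebella at postnatal day 1, and poly-A mRNA libraries were sequenced as paired ends. Per the labels, reads were aligned to mm10 with HISAT2 2.0.5 and counted per gene with featureCounts 1.5.0-p3, and the deposited counts are not normalized. The deposited FPKM come from the same counts and the length of each gene. The annotation release and the strand setting are not given in the sources used here, so overlapping genes may share reads.

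Samples were grouped by their labels. Counts were fitted with edgeR 4.0.16 in R 4.3.3 (filter filterByExpr, TMM scaling, quasi-likelihood test) across all genes, 3 mutant against 3 control libraries, with Benjamini-Hochberg adjustment over 17505 genes. Thresholds were those of the study's methods, which used DESeq2. CPM are counts scaled to TMM-normalized library totals. The common dispersion was 0.0105. Same-group libraries differed by more than sampling noise (chi-square per gene 3.64 to 10.1). As alternatives, DESeq2 1.42.0, other normalizations, filters and thresholds, the replicate number as a block, Y-chromosome gene level as a covariate for sex, each library left out, and limma 3.58.1 on log2(FPKM + 1) and log2(FPKM + 0.1) were run. The fits were tested on simulated data.

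Named genes were the 10 patterning genes, 6 paralogs, *Tox3*, *Atoh1*, genes within 10 kb of a member and, from each marker list, at most the 3 with the smallest p and those with at most 3 counts in every library. Others are marked in the text. A few marker genes are not reported here by name. The members, lists and tests were chosen with earlier results of these data known. Intervals from counts cover counting error only.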

Additional observations from a re-analysis of the deposited data

How the results depend on the processing

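The number of patterning genes called lower was 3 in 14 of 18 alternatives. It was 2 in the limma fits on FPKM, which lost *Otx1*, and 4 without a fold threshold. The number called higher was 0, but 1 without a fold threshold (*Irx2*) and 0 to 1 with a library left out (*Irx3*, without control 2). Of the single genes, *Pax5* changed sign, lying between −0.35 without mutant 1 and 0.54 without mutant 3, and the other 8 kept their sign in all 16 fits. The p threshold was passed by *En2* in 7 and by *Irx2* in 11 of the 16. Over all tested genes, 635 were called lower and 530 higher. The counts were 370 and 252 on log2(FPKM + 1), 417 and 300 on log2(FPKM + 0.1), 286 and 176 on log2(FPKM + 1) with no filter, 145 and 30 with edgeR's test against the fold threshold itself, and 1268 and 1147 without a fold threshold. With a library left out they were 492 to 778 and 349 to 569, the lowest count of higher genes being that without mutant 3. Fewer samples or another threshold account by construction for part of these shifts, and the cause was otherwise not tested. The log2 ratio of the summed choroid plexus markers, 1.51, was −0.04 without mutant 3 and 2.06 without mutant 2. Normalization moved the median log2 fold change of all genes from −0.01 to at most 0.01.

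The deviations of same-numbered libraries had correlations of 0.24, 0.27 and −0.16, and not every library correlated best with its own number. With 3 libraries per group, these values cannot settle whether the numbers pair the libraries. With the replicate number as a block, the same 3 patterning genes were called lower and none higher, and 696 and 561 of all genes were called. The low counts of *Otx1*, *Gbx2*, *Pax5* and *Pax8* limit what this depth can show.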
